A study of Homo sapiens with 6 samples.

Results

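The 10 genes described here, S100A2, S100A4, S100A6, S100A8, S100A9, S100A10, S100A11, S100A14, S100A16 and S100P, encode S100 calcium-binding proteins and were taken by symbol from an RNA-seq table of 21293 human genes. Of the 10, 9 (all but S100A8) had a row in the table and 8 were above 0 in at least 1 library. Those 8 were also the members that reached a mean normalized count of 10 and were tested, among 14395 genes in all. The cells were H2087-LCC, a latency competent cancer population selected in mice from the human lung adenocarcinoma line H2087, kept in medium with 2% serum. One group received 2.5 µM SB505124 (SB), which blocks the TGFβ type I receptor, for 3 days, and the others received 100 pM TGFβ for 3 days or for 7 days, with 2 libraries each. The study calls such libraries technical replicates, so the SDs and p-values may cover only technical spread. SB treatment stopped at 3 days, so in the 7-day comparison with SB the agent and the time in culture cannot be told apart. H2087-LCC is a single selected line, and nothing here speaks to other lines.

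S100 proteins are small, usually dimeric proteins of vertebrates that carry a pair of EF-hand loops. Calcium binding opens a hydrophobic face on most of them, with which they hold partners such as annexins, non-muscle myosin and cytoskeletal linkers, and some are released from cells and act on receptors such as AGER and TLR4. Most of the family lies in the epidermal differentiation region of chromosome 1, on both sides of genes for skin barrier proteins. S100A4 is widely used as a marker of epithelial-mesenchymal transition and cell motility, and TGFβ is the best studied inducer of that transition in carcinoma cells.

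In these cells 4 members passed the test as higher and 1 as lower after 7 days of TGFβ than with SB. S100A4, S100A10, S100A11 and S100A16 were the higher members, by 1.29-, 1.36-, 1.45- and 1.66-fold. S100P, a low transcript here, was at 0.290-fold after 1 was added to each value, with means of 8 at 7 days and 30.5 with SB. S100A11 and S100A16 were already higher at 3 days, by 1.46-fold and 1.81-fold. S100P was already lower, a call lost with no filter on low values and in most fits that left out a library, as given below. S100A2, S100A6 and S100A14 did not pass the test at either time. At 7 days 54.5% of all tested genes passed. The change of S100A4, an abundant transcript, was larger than that of 45.6% of tested genes, and that of S100P was larger than that of 93.4%.

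All 5 epithelial markers were detected, with summed normalized counts of 77047 to 106224, of which KRT8 and KRT18 made up most. Of the 5, 3 passed as lower at both times: CDH1, the adhesion protein E-cadherin, went from 371 and 635 with SB to 28 and 24 at 3 days and 10 and 9 at 7 days, EPCAM from 10180 and 9106 to 6610 and 5994 and 2988 and 3277, and KRT18 by -0.29 and -0.56 in log2. The 3 lung lineage factors were also lower at 3 days. NKX2-1 went from 2784 and 2908 with SB to 712 and 748 and then 853 and 857, and SOX2 from 1552 and 2658 to 626 and 569 and then 942 and 1049, while SOX9 was lower at 3 days and higher than with SB at 7 days (log2 fold changes -0.66 and 0.38). Of 8 leukocyte markers, CSF1R was the 1 that reached a mean of 10. It went from 34 and 31 to 626 and 677 and then to 1114 and 1032, and it made up nearly all of the list's sum, which was 52 and 48 with SB and 1129 and 1041 at 7 days. None of the other 7 exceeded 8 in any library, and PTPRC, the pan-leukocyte gene, was between 0 and 4. Summed squamous and basal markers ran from 3 to 50, with KRT14 at 0 in both SB libraries, 15 and 10 at 3 days and 41 and 22 at 7 days and the other 3 between 0 and 8. Endothelial markers summed to 56 to 78 and fibroblast markers from 231 and 277 with SB to 953 and 735 at 7 days, where COL1A1 and PDGFRB made up most of the sum and DCN and LUM were at 0 or 1. The part of the markers that moved in the results below was not tested. The libraries summed to between 34306283 and 36340734 normalized counts.

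Of the members with a row, 8 lie on chromosome 1 and S100P lies on chromosome 4 (GRCh37, 6695605 to 6698897, plus strand). On chromosome 1, S100A10 (151955391 to 151966335) and S100A11 (152004982 to 152020383) lie at one end of the epidermal differentiation region, and S100A9 (153330330 to 153333499), S100A6 (153507075 to 153508720), S100A4 (153516089 to 153522612), S100A2 (153533584 to 153540366), S100A16 (153579362 to 153585621) and S100A14 (153586731 to 153589462) at the other. All of these are on the minus strand except S100A9. These are whole gene spans, and the counted reads are those that fall in exons. S100A3 lies inside the span of S100A4 on the same strand, and S100A13 overlaps S100A1 on the opposite strand. No annotated exon of a member overlapped an exon of another gene in the table, so this overlap touches S100A13 and S100A1 but not the 10 members. The library kit does not keep strand, and reads from the overlap of S100A13 and S100A1 cannot be told apart. That overlap involves other annotated transcripts, since the exons of the transcript chosen for each gene did not overlap.

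The promoter windows of 3 members with a single listed start are shown because they stand for the patterns described below: S100A11 passed as higher at both times, S100A4 passed as higher at 7 days and S100P passed as lower at both times. Each is the 250 bases before the start in RefSeq on GRCh38.p14, written 5′ to 3′ on the gene's strand, at chr1:152037005-152037254 (minus strand) for S100A11, chr1:153545807-153546056 (minus strand) for S100A4 and chr4:6693628-6693877 (plus strand) for S100P. Capitals mark the letters GTCTG or CAGAC, the short core that SMAD proteins bind, and CAGGTG or CACCTG, an E-box bound by SNAIL and ZEB factors.
S100A11: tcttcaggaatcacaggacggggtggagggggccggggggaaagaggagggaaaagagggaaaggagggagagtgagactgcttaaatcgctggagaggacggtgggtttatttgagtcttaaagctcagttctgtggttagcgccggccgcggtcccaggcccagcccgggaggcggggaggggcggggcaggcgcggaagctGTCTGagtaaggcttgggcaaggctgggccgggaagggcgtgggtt
S100A4: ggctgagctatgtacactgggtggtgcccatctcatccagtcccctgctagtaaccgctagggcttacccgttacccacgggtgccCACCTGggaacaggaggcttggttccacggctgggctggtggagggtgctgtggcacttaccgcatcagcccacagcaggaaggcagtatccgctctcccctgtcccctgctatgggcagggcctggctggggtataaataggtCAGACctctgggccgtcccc
S100P: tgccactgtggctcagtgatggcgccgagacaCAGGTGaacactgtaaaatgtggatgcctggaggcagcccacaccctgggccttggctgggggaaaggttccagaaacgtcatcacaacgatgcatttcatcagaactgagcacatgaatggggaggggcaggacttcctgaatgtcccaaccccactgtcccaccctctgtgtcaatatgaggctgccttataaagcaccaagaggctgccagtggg
The S100A11 window held the SMAD core, the S100P window held the E-box and the S100A4 window held both. All 10 members had at least 1 window among the 35114 windows of 27303 genes, 14 windows in all, and several windows of S100A8 overlap one another. On either strand, the SMAD core was found in a window of 6 of the 10 members and in 42.8% of all genes. The E-box was found in 7 of the 10 and in 20.6% of all genes. The AP-1 letters TGANTCA were found in 1 of the 10, S100A2, and in 8.06% of all genes, and the TEAD letters GGAATG or CATTCC in 1 of the 10, S100A16, and in 14.3% of all genes. A match says only that these letters stand in the window.

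Levels of different genes were compared as normalized counts per kb of the representative transcript of each gene in GENCODE. S100A6, known as calcyclin, had the highest level with SB, at 77467 ± 4384 per kb (SD, n = 2), followed by S100A4 at 53768 ± 2873 and S100A10 at 34972 ± 5222. S100A11 followed at 20377 ± 3117, S100A16 at 10234 ± 1903 and S100A2 at 6250 ± 1122. A wide gap separated these 6 abundant members from S100P, at 64.8 ± 19.5 per kb, and S100A14, at 15.2 ± 9.39. The order per kb was the same at 3 days of TGFβ. At 7 days S100A14 (18.5 ± 0.671) and S100P (17.0 ± 3.00) stood in the other order, but their libraries overlapped. No other neighbours in the order overlapped in any group. With no division by length, the mean of S100A16 stood above that of S100A11 in every group, and S100A14 stood above S100P at 3 days, where their libraries did not overlap, and at 7 days. Together the members took 0.343% and 0.315% of all normalized counts with SB, 0.387% and 0.399% at 3 days and 0.413% and 0.401% at 7 days.

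**Figure D1:**
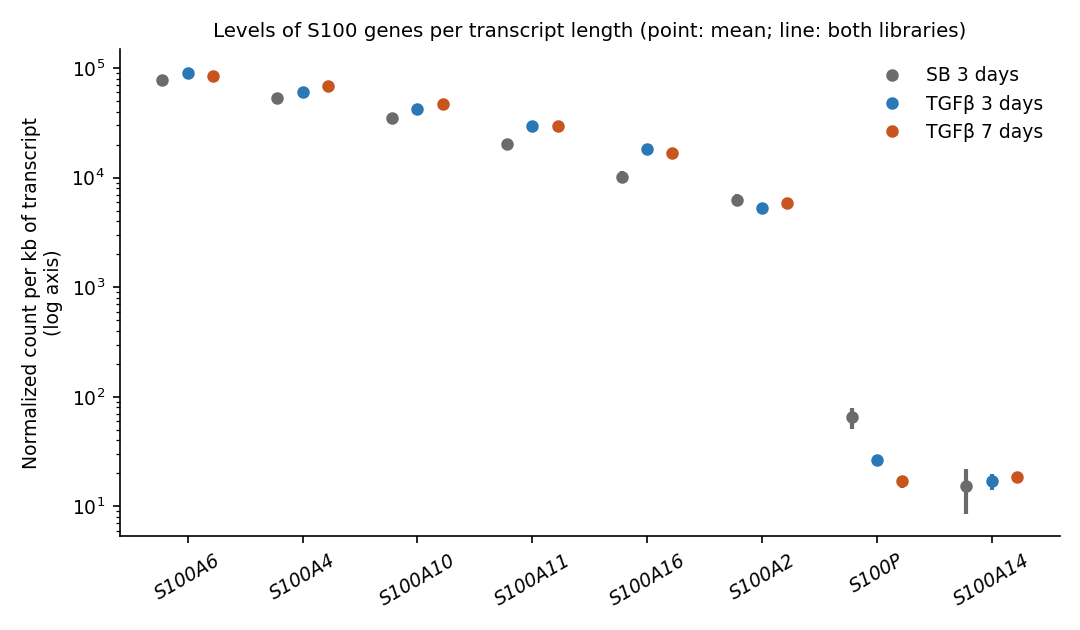
Normalized count per kb of transcript (log axis) for the 8 members above 0, in the SB, TGFβ 3-day and TGFβ 7-day groups; points are means and lines run between the 2 libraries. S100A6 is the highest at 77467 per kb with SB, and S100P and S100A14 lie far below the other 6, at 64.8 and 15.2 per kb with SB.

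S100A9, which pairs with S100A8 as calprotectin in neutrophils and monocytes, was listed at 0 in each of the 6 libraries. With a floor of 3 counts per library, this allows at most 8.26e-06% to 8.74e-06% of a library's normalized counts, for counting error only. The expression of S100A8 was not analysed here, and of this gene only the promoter windows were used.

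The comparison of TGFβ with SB at 3 days asks how the members stood after the pathway was switched on for the same time as it was blocked. At 3 days 3 of the 8 tested members passed limma's test at an adjusted p of 0.05, 2 higher and 1 lower, where 29.0% of all tested genes passed, 14.9% higher and 14.0% lower. The members' median log2 fold change was 0.25, against -0.02 over all tested genes. In 7 of the 8 both TGFβ libraries lay beyond both SB libraries, 5 above and 2 below, where the same held for 63.2% of all tested genes (30.3% above and 32.9% below). S100A14 was the 1 with overlapping groups.

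S100A16, a widely expressed member whose gene is next to S100A14, had 13571 and 10417 normalized counts with SB, 20607 and 22518 at 3 days and 20785 and 18661 at 7 days. Every TGFβ library was above both SB libraries, and the 3-day and 7-day libraries overlapped. S100A16 rose by 0.86 ± 0.12 (SE) on the log2 scale at 3 days (adjusted p = 0.000165), a change larger than that of 88.1% of tested genes. The 7-day rise was 0.73 ± 0.12 (adjusted p = 0.000246).

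S100A11, a partner of annexin A1 in the cornified layer of skin, had 12713 and 10231 normalized counts with SB, 16312 and 16913 at 3 days and 16899 and 16152 at 7 days. The 4 TGFβ libraries lay close together and above both SB libraries. S100A11 rose by 0.54 ± 0.10 (SE) on the log2 scale at 3 days (adjusted p = 0.00161) and rose to much the same extent, 0.53 ± 0.10, at 7 days (adjusted p = 0.000769). Between the times it differed by -0.01, with a 95% interval of -0.23 to 0.21.

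S100A10, which does not itself bind calcium and joins annexin A2 in a complex at the plasma membrane that binds plasminogen, had 25944 and 20989 normalized counts with SB, 29447 and 27516 at 3 days and 30815 and 32527 at 7 days. The groups did not overlap, and the SB libraries were the farthest apart. At 3 days the log2 fold change of 0.29 ± 0.10 (SE) did not pass the test (adjusted p = 0.0510). At 7 days S100A10 rose by 0.44 ± 0.10 (adjusted p = 0.00290).

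S100A4, which binds the heavy chain of non-muscle myosin and loosens its filaments, had 26541 and 28625 normalized counts with SB, 31147 and 30434 at 3 days and 35540 and 35393 at 7 days. The groups did not overlap and stood in the order of SB, 3 days and 7 days. The 3-day difference of 0.16 ± 0.08 (SE) in log2 did not pass (adjusted p = 0.145). The 7-day rise was 0.36 ± 0.08 (adjusted p = 0.00181). Between 7 and 3 days the difference was 0.20 ± 0.08, with an adjusted p of 0.0611 and an unadjusted p of 0.0218.

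S100A6, a partner of the calcyclin-binding protein CACYBP, had 34966 and 32275 normalized counts with SB, 37720 and 40505 at 3 days and 38090 and 35989 at 7 days. Its TGFβ libraries were above both SB libraries, but neither the 3-day log2 fold change of 0.22 ± 0.08 (SE, adjusted p = 0.0660) nor the 7-day one of 0.14 ± 0.08 (adjusted p = 0.167) passed the test. S100A2, a nuclear member found in basal and squamous epithelium, had 6881 and 5331 with SB, 5225 and 5130 at 3 days and 5814 and 5664 at 7 days. The spread between its SB libraries was wider than the distance between the group means, and its log2 fold changes were -0.23 ± 0.11 (adjusted p = 0.144) and -0.08 ± 0.11 (adjusted p = 0.569).

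S100P, a member first found in placenta and present in many carcinomas, had 24 and 37 normalized counts with SB, 14 and 11 at 3 days and 9 and 7 at 7 days. No TGFβ library reached an SB library. It fell by 1.20 ± 0.39 (SE) on the log2 scale at 3 days (adjusted p = 0.0364) and fell by 1.78 ± 0.39 at 7 days (adjusted p = 0.00211), on log2(value + 1). Its mean over all libraries is 17.0, and the 7-day mean of 8 is below the minimum of 10 that the overall mean had to reach. The 3-day call was lost without SB replicate 2 (adjusted p = 0.154), TGFβ 3-day replicate 1 (0.0862) or TGFβ 3-day replicate 2 (0.162), and with no filter on low values (0.0728). S100A14, an epithelial member, had 9 and 23 with SB, 15 and 21 at 3 days and 20 and 19 at 7 days. Its groups overlapped, and its 95% intervals of -0.68 to 1.23 at 3 days and -0.55 to 1.36 at 7 days leave changes in either direction unresolved at this depth.

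**Figure D2:**
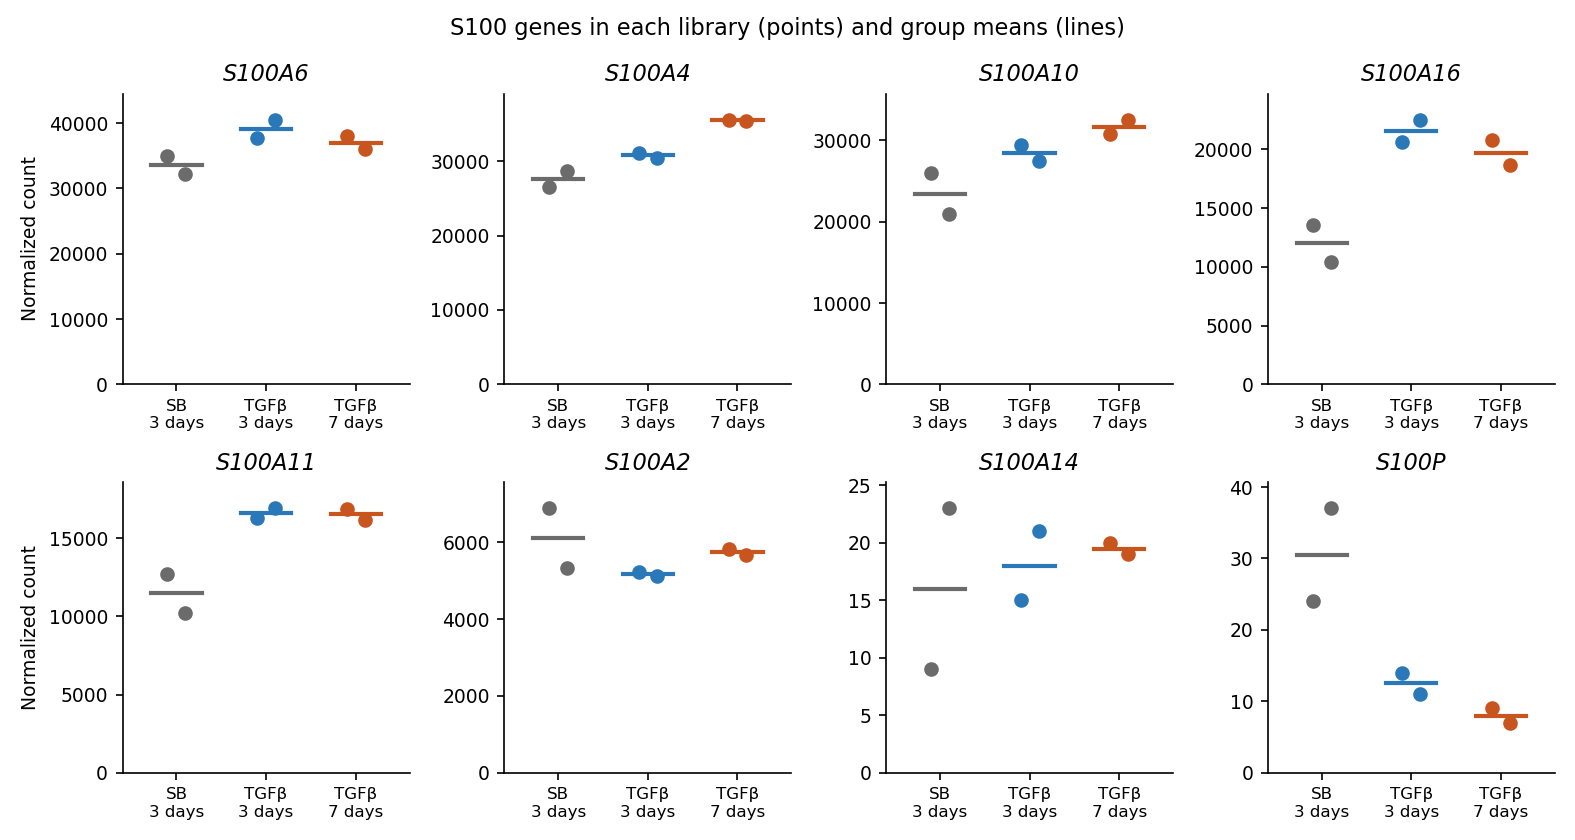
Normalized count (vertical axes from 0, one scale per gene) of the 8 members above 0 in each of the 6 libraries; points are libraries and lines are group means. S100A16 and S100A11 lie higher in all 4 TGFβ libraries, S100A4 stands in the order SB, 3 days and 7 days, S100P lies lower in all 4, and the SB libraries of S100A2 and S100A14 span the TGFβ means or come close to them.

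The libraries were bulk RNA, so more cells with a transcript and more transcript per cell cannot be told apart. The SB libraries differed from each other in several members: SB replicate 2 was lower than replicate 1 by 0.37 on the log2 scale for S100A2, 0.31 for S100A10, 0.31 for S100A11 and 0.38 for S100A16, a gap larger than that of 75.5% to 82.0% of tested genes. Replicate 2 was higher than replicate 1 for S100A14, by 1.26, and for S100P, by 0.60, gaps larger than those of 98.5% and 91.3% of tested genes. The 1481 tested genes with transcripts under 1200 nt, the size class of the members, had a median of -0.11 for SB replicate 2 minus replicate 1, against -0.01 for all tested genes. The members' 3-day count was 5 without SB replicate 1, where 26.9% of all tested genes passed, adding S100A10 (adjusted p = 0.00396) and S100A6 (0.0349), and S100A2 passed as lower without SB replicate 2 (log2 fold change -0.41, adjusted p = 0.00691). After a loess correction of each library for base composition and length, the 3-day count was 6, adding S100A4, S100A6 and S100A10, where 38.9% of all tested genes passed under the same correction, and S100A6 also passed at 7 days (log2 fold change 0.36, adjusted p = 0.000275).

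The comparison of 7 days of TGFβ with SB adds 4 days of exposure and of culture, and it shares its SB libraries with the comparison at 3 days. At 7 days 5 of the 8 tested members passed, 4 higher and 1 lower, where 54.5% of all tested genes passed, 27.7% higher and 26.9% lower. The share of members that passed was close to that background. The members' median log2 fold change was 0.38, against a median near 0 over all tested genes. In 6 of the 8 the libraries did not overlap, 5 higher and 1 lower, where this held for 77.5% of all tested genes (38.9% higher and 38.6% lower). The called members rose by 0.36 to 0.73 on the log2 scale, and S100P had the widest change. S100A2 also passed as lower (log2 fold change -0.26, adjusted p = 0.0251) and S100A14 as higher (1.04, adjusted p = 0.0488) once SB replicate 2 was left out.

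**Figure D3:**
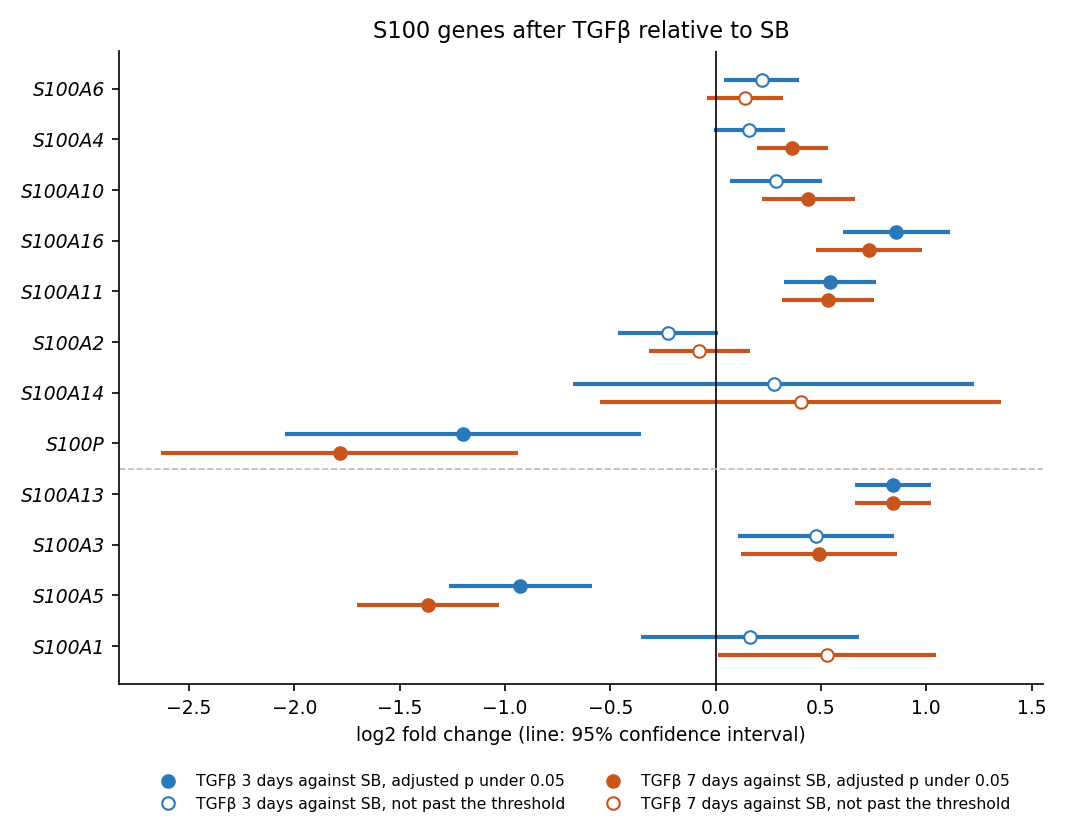
Log2 fold change against SB with its 95% confidence interval for the 8 tested members (above the dashed line) and the 4 other tested S100 genes (below it), at 3 days and 7 days of TGFβ; filled points passed limma's test at an adjusted p of 0.05. S100A16 is at 0.86 and 0.73 and S100A13 at 0.84 at both times, while S100P is at -1.20 and -1.78 and S100A5 at -0.93 and -1.37.

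Between 7 days and 3 days of TGFβ, 0 of the 8 tested members passed limma's test, where 33.2% of all tested genes passed, 17.0% higher and 16.2% lower. At an unadjusted p under 0.05 there was 1, S100A4, where 44.0% of tested genes were under it. S100A4 passed with equal library totals (adjusted p = 0.0472), with the 4 libraries compared fitted alone (0.0255) and, with S100A10, after the correction for GC content and length (0.0105 and 0.0150). In these settings 32.7%, 38.8% and 44.0% of all tested genes passed. The median log2 difference of the members was 0.06, against 0.02 over all tested genes, and 4 of the 8 had libraries that did not overlap, 3 higher and 1 lower, where this held for 69.1% of tested genes (36.2% and 32.9%). For S100A16 the difference was -0.13, with a 95% interval of -0.38 to 0.12. S100P had the widest interval of the called members, from -1.43 to 0.26 around -0.58.

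Of 11 other S100 genes looked for, 8 had a row and 4 were tested. S100A13, which takes part in the release of FGF1 and interleukin 1 alpha by a route outside the usual secretory path, had 3217 and 3060 normalized counts with SB, 5600 and 5646 at 3 days and 5826 and 5422 at 7 days. Its TGFβ libraries lay far above both SB libraries, and its log2 rise was 0.84 ± 0.08 (SE) after 3 days (adjusted p = 1.35e-05) and 0.84 ± 0.08 after 7 days (adjusted p = 6.11e-06). S100A5, known from olfactory neurons, had 355 and 324 with SB, 183 and 173 at 3 days and 135 and 127 at 7 days. It fell by 0.93 ± 0.15 (adjusted p = 0.000815) and then fell by 1.37 ± 0.15 against SB (adjusted p = 1.86e-05), in steps that did not overlap. S100A5 lies between S100A6 and S100A4 on the same strand.

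S100A3, a hair cuticle protein, had 164 and 198 normalized counts with SB, 231 and 273 at 3 days and 275 and 234 at 7 days. It passed as higher at 7 days (log2 fold change 0.49 ± 0.17, adjusted p = 0.0284), a call kept in 2 of the 4 fits that left out a library, while at 3 days its 0.48 had an adjusted p of 0.0549. S100A1, a regulator of calcium release in muscle, had 57 and 55 with SB, 57 and 69 at 3 days and 94 and 70 at 7 days, and passed at neither time (adjusted p = 0.653 and 0.0788). S100A7 was between 0 and 2 and S100B, the astrocyte and nerve sheath member, between 0 and 1, while S100A7A and S100G were listed at 0.

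From S100A10 to S100A1, a stretch of 1649 kb on chromosome 1 holds 14 S100 genes and 28 other genes of the table. Of the 11 tested S100 genes there, 3 passed as higher and 1 as lower at 3 days, and 6 as higher and 1 as lower at 7 days, against 14.9% and 14.0% of all tested genes at 3 days and 27.7% and 26.9% at 7 days. Of the 7 tested other genes, 0 passed as higher and 2 as lower at 3 days, and 0 as higher and 4 as lower at 7 days. Their median log2 fold change at 7 days was -1.17, and that of the S100 genes was 0.44. Most of the other genes were low or absent, with 9 of the 28 at 0 in every library.

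**Figure D4:**
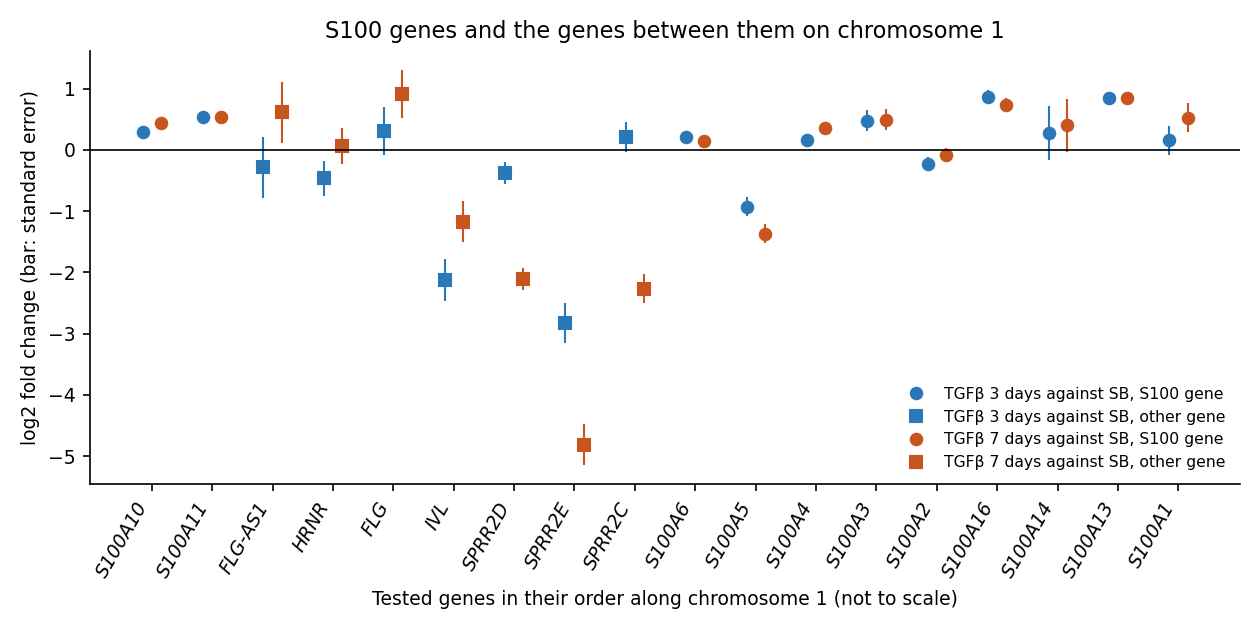
Log2 fold change against SB (bars are standard errors) of the 18 tested genes between S100A10 and S100A1, in gene order along chromosome 1 and not to scale; circles are S100 genes and squares are other genes. The S100 genes other than S100A5 lie between -0.23 and 0.86, while IVL, SPRR2D, SPRR2E and SPRR2C reach -1.17, -2.11, -4.81 and -2.26 at 7 days.

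Of 22 listed genes for S100 fused-type and cornified envelope proteins, 17 had a row and 5 were tested. At 3 days 0 passed as higher and 2 as lower, and at 7 days 0 and 3, with medians of -0.47 and -1.17, where 14.0% of all tested genes passed as lower at 3 days and 26.9% at 7 days. SPRR2E, a small proline-rich envelope precursor, had 323 and 220 normalized counts with SB, 34 and 40 at 3 days and 12 and 6 at 7 days. Its log2 fold changes were -2.82 ± 0.33 and -4.81 ± 0.33 (adjusted p = 5.20e-05 and 2.61e-07). SPRR2D had 649 and 440, then 398 and 428, then 118 and 129, with log2 fold changes of -0.37 (adjusted p = 0.146) and -2.11 ± 0.18 (adjusted p = 1.83e-06). The SPRR2 genes are near-identical copies, so their split of the reads is uncertain. IVL, the envelope scaffold involucrin, had 49 and 81, then 11 and 17, then 26 and 29, with log2 fold changes of -2.12 ± 0.34 (adjusted p = 0.000604) and -1.17 ± 0.34 (adjusted p = 0.0120).

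Annexins bind membranes in the presence of calcium and are the best known partners of S100 dimers. Of 14 listed, 10 were tested, and 3 passed as higher and 5 as lower at 3 days and 2 and 4 at 7 days, with medians of -0.14 and -0.01. Over all tested genes 29.0% passed at 3 days and 54.5% at 7 days, so the 6 of 10 at 7 days were close to that background. ANXA2, the partner of S100A10, had 142011 and 129737 normalized counts with SB, 101514 and 95453 at 3 days and 102335 and 106457 at 7 days. It fell by 0.46 ± 0.08 (adjusted p = 0.00140) and its 7-day log2 fold change was -0.38 ± 0.08 (adjusted p = 0.00237), so at 7 days S100A10 had passed as higher and ANXA2 as lower. ANXA1, a partner of S100A11, had 38794 and 35830, then 23699 and 21148, then 12756 and 13677. Its log2 fold changes were -0.74 ± 0.09 (adjusted p = 5.80e-05) and -1.50 ± 0.09 (adjusted p = 6.64e-08), while S100A11 stood higher at both times. ANXA3 fell from 1919 and 1543 to 616 and 543 and to 106 in both 7-day libraries (log2 fold change -4.01 ± 0.14, adjusted p = 1.05e-09). ANXA6, which also binds S100 proteins, rose by 0.86 ± 0.08 and by 1.16 ± 0.08 (adjusted p = 1.18e-05 and 4.04e-07).

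Of 21 other listed receptors and partners, 18 were tested, and 3 passed as higher and 4 as lower at 3 days and 5 and 4 at 7 days, with medians of -0.14 and -0.05. These 7 and 9 of 18 stand beside the 29.0% and 54.5% of all tested genes that passed. PPFIBP1, the liprin that binds S100A4, had 3505 and 3293 normalized counts with SB, 8154 and 7985 at 3 days and 10029 and 10378 at 7 days. It rose by 1.25 ± 0.08 (adjusted p = 3.65e-07) and by 1.59 ± 0.08 (adjusted p = 2.15e-08), more than any other tested gene of this list. MYH9, the myosin heavy chain bound by S100A4, had 51663 and 60415, then 54944 and 67832, then 55785 and 48241. Its groups overlapped, and its log2 fold changes of 0.13 and -0.11 did not pass (adjusted p = 0.448 and 0.459).

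CACYBP, the partner of S100A6, had 10329 and 8776 normalized counts with SB, 8736 and 7832 at 3 days and 5268 and 5860 at 7 days. After 3 days it stood at -0.20 ± 0.10 in log2 (adjusted p = 0.157), and by 7 days it fell by 0.78 ± 0.10 (adjusted p = 5.41e-05). EZR, the membrane linker ezrin that S100P activates, had 10485 and 9453, then 8856 and 9072, then 6585 and 6125. It was at -0.15 ± 0.08 at 3 days (adjusted p = 0.206) and fell by 0.65 ± 0.08 at 7 days (adjusted p = 5.56e-05). KCNK3, a potassium channel that S100A10 binds, had 25 and 32, then 2 and 10, then 9 and 13. On log2(value + 1) it fell by 2.35 ± 0.56 at 3 days (adjusted p = 0.00801), with an adjusted p of 0.0664 at 7 days. Its 3-day mean of 6 is below the minimum of 10 set for the overall mean, and the 3-day libraries were far apart, so the size of this fall is imprecise.

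Some S100 proteins are released and act on receptors. AGER, a receptor of S100P, S100A8 and S100A9 among others, had 203 and 255 normalized counts with SB, 122 and 162 at 3 days and 232 and 225 at 7 days. It fell by 0.69 ± 0.19 at 3 days (adjusted p = 0.0160) and was back within the SB range at 7 days (log2 fold change 0.01 ± 0.19, adjusted p = 0.980). TLR4, a receptor of S100A8 and S100A9, had 179 and 161, then 161 and 150, then 193 and 222, and its log2 fold changes of -0.13 and 0.28 did not pass (adjusted p = 0.611 and 0.166).

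The genes with the most similar pattern over the 6 libraries were found by the distance between centred log2 values, among all tested genes. The nearest to S100A4 were WNK1, at a distance of 0.0507, IGBP1 at 0.0555 and NBAS at 0.0625. WNK1, a kinase of ion transport, had 9498 and 9991 normalized counts with SB, 11099 and 10757 at 3 days and 12188 and 12544 at 7 days, rising in the same order of groups. S100P had the widest range of the members, 2.25 on the log2 scale, and its nearest genes were the interleukin receptor gene IL1R1 at 0.344, the growth factor gene EREG at 0.393 and the Notch ligand gene JAG2 at 0.425. IL1R1 had 2172 and 2925, then 1018 and 935, then 830 and 736. EREG had 15859 and 23088, then 7468 and 6921, then 4909 and 5217. In each of these 3, as in S100P, SB replicate 2 was the highest library. All of these genes were chosen for likeness over the same libraries, so their shared orders are no separate evidence.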

How the data were processed

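RNA-seq libraries of H2087-LCC cells in 3 groups of 2 were analyzed. PolyA RNA, as the labels name it, was made into libraries with a TruSeq RNA kit, a kind that does not keep strand. As the study's methods state, read pairs were mapped to hg19 with STAR and counted per gene with HTSeq 0.6.1p1. The authors normalized the counts by library size with DESeq2 (given as version 3.4) and deposited them as whole numbers, recorded here under the unit score. The annotation release is not given in the sources used here. Because the deposited values are normalized and rounded, no count model was applied.

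A pseudocount of 1 was added before taking log2. Genes whose mean normalized count reached 10, 14395 in number, went into limma 3.58.1 (empirical Bayes with a trend) in R 4.3.3, in 1 fit of 6 libraries with 3 residual degrees of freedom. P-values are two-sided and adjusted by the Benjamini-Hochberg method over all tested genes for each of 3 comparisons, at a threshold of 0.05. An exact permutation test of 2 against 2 libraries cannot go below 0.333 and was not used. The steps were tested on simulated data. The members, gene lists and tests were chosen with earlier results of these data known. All members, and all other S100 genes with a row, are named whatever their result. Of the lists of envelope genes, annexins and partners, genes past the threshold with a log2 fold change of at least 1 in size are named. ANXA2, CACYBP, MYH9, EZR, AGER, TLR4 and S100PBP are named as well. Cell type markers were named after their values were seen.

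Gene positions and transcript lengths (MANE Select, else canonical) come from GENCODE on GRCh37 and promoter windows from RefSeq on GRCh38.p14; of 21293 symbols, 18435 were current, 1284 older and 1574 not matched. The alternatives were a pseudocount of 0.5 or 5, a minimum mean of 50 or none, scaling by median of ratios, by total or by upper quartile, limma with no trend, 4 libraries alone, a replicate block, each library left out, and levels not divided by length. A loess correction for base composition (GC) and length (span 0.5), which covered 13867 of the 14395 genes, was chosen after seeing the data. The total of normalized counts per library, 34306283 to 36340734, is not the number of reads, so intervals from counting were not computed beyond the floor of 3 counts. Figures were drawn with matplotlib 3.10.9.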

Additional observations from a re-analysis of the deposited data

Results flagged for a closer look

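The tested S100 genes and the partners ANXA2, CACYBP, MYH9, EZR, AGER, TLR4 and S100PBP were searched for a difference between 3 and 7 days of TGFβ. The test was limma's, of the 7-day against the 3-day libraries, in which the shared SB libraries cancel. Over all tested genes 33.2% passed it, as did 8 of the 18 tested receptors and partners and 5 of the 10 tested annexins. Those counts include genes outside the search. The results below are the searched genes that passed, 1 S100 gene and partner genes. S100A5 was lower at 7 days than at 3 days by a log2 difference of -0.44 ± 0.15 (SE, adjusted p = 0.0471), a call lost in each of the 4 fits that left out a library (adjusted p = 0.120 to 0.217). CACYBP was lower at 7 days by -0.57 ± 0.10 (adjusted p = 0.00157) and EZR by -0.50 ± 0.08 (adjusted p = 0.00133). AGER was higher at 7 days than at 3 days by 0.70 ± 0.19 (adjusted p = 0.0145). S100PBP, which encodes a binding protein of S100P, was higher at 7 days by 0.72 ± 0.11 (adjusted p = 0.000652), with 934 and 1067 normalized counts with SB, 893 and 873 at 3 days and 1389 and 1532 at 7 days. No S100 member was among these results.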

How the results depend on the processing

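Leaving out 1 library left 1 library in a group, and calls of members at 3 and 7 days moved in such fits. With the correction for GC content and transcript length, 6 members passed at 3 days, where 38.9% of all tested genes passed. Between 7 and 3 days 1 member passed with equal library totals, where 32.7% of all tested genes passed. With the 4 libraries alone 1 passed, where 38.8% of all tested genes did. With that correction 2 passed, where 44.0% of all tested genes did. The causes were not tested. Against SB, the calls of S100A11 and S100A16 at both times and the 7-day calls of S100A4 and S100A10 kept their direction and call in every setting run, and that of S100P in every setting that tested it. With a mean of at least 50, S100P and S100A14 were not tested. The size of the 7-day changes moved with the correction for GC content and transcript length. There S100A4 was at 0.58 and S100A10 at 0.66 in log2, against 0.36 and 0.44 in the main fit. S100A10 at 3 days passed with median-of-ratios factors (adjusted p = 0.0458) and the upper quartile (0.0414).

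Some log2 fold changes that did not pass the test changed sign. Leaving out 1 library at a time, S100A14 ranged from -0.36 to 0.91 at 3 days, from -0.23 to 1.04 at 7 days and from -0.10 to 0.36 between the times, S100A2 from -0.26 to 0.11 at 7 days, and S100A11 from -0.040 to 0.025 between the times. With the GC and length correction, S100A2 was at 0.074 at 7 days, and between the times S100A6 was at 0.038 and S100A11 at 0.084. S100A11 between the times was also at 7.9e-05 with equal totals and 0.0050 with the upper quartile.

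Replicate numbers did not pair the libraries: deviations of equally numbered libraries correlated over genes at 0.14 for SB and 3 days, -0.10 for SB and 7 days and -0.29 for 3 and 7 days. With the replicate number as a block, 4, 5 and 0 members passed in the 3 comparisons, where 27.4%, 52.4% and 31.2% of tested genes did. S100A10 was the addition at 3 days (adjusted p = 0.0422). With 2 libraries a group and values of 7 to 37, changes in S100P and S100A14 are imprecise.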
